A study of Mus musculus with 9 samples.

Results

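Nuclear receptors are transcription factors that a small lipid-soluble ligand can switch on or off, and the liver uses a group of them to sense fatty acids, oxysterols, bile acids and foreign compounds. A set of 10 of them is described here across 3 groups of mouse livers: Ppara and Pparg (fatty acid sensors), Rxra (the partner with which most of the others bind DNA as a heterodimer), Nr1h3 (LXRα, an oxysterol sensor), Nr1h4 (FXR, the bile acid sensor), Nr0b2 (SHP, a repressor without a DNA-binding domain that FXR induces), Nr1i2 (PXR) and Nr1i3 (CAR), which sense xenobiotics, Nr5a2 (LRH-1, a regulator of bile acid synthesis) and Hnf4a (a regulator of hepatocyte identity). The members were found by gene name in the annotation of the arrays. They comprised 10 of the 37074 gene names and 17 of the 56605 probes that were not controls, with 1 spot per probe. None of the 17 spots carried a quality mark.

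The mice were male and received an adeno-associated virus (AAV) intravenously, either an empty vector (AAV-V) or a vector encoding mouse GP73 (AAV-GP73), a Golgi protein whose gene is Golm1. The study describes the virus as hepatocyte-specific. AAV-V and AAV-GP73 mice ate a normal diet, and the remaining group received AAV-V and a high fat diet (AAV-V HFD). Each group had 3 arrays of liver RNA, and the labels give 12 months as the age of all samples. The sources differ on whether 12 months counts from birth or from injection and on how long the HFD was fed, and they leave unsaid if each sample came from a single mouse or pooled mice. The p-values therefore measure the spread between these samples, which may be technical.

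Cy3-labelled RNA was read on Agilent arrays of 60-base probes, in 1 colour. A pair of quantities is given for each probe. The processed signal is the background-subtracted brightness in the scanner software's units, unscaled between arrays. The scaled log2 level is its log2 after every array was shifted to the same 75th percentile of the 2667 probes that the software marked as well above background on all 9 arrays. Only a probe so marked on all arrays of at least 1 group was tested (6591 probes), with limma and Benjamini-Hochberg adjustment, and the call required a 2-fold change and an adjusted p under 0.05. "Detected" below stands for well above background.

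The AAV-V arrays were dimmer than the others. The median processed signal of the 2667 probes was 35.7 ± 2.83 (SD, n = 3) in the AAV-V group, 112.6 ± 14.1 with AAV-GP73 and 104.8 ± 25.2 with the HFD. The share of spots detected ran from 10.2% to 10.7%, from 16.0% to 18.4% and from 13.8% to 16.7% in the same order. Spike-in controls, which are not from the liver, averaged 10.59 ± 0.28, 10.45 ± 0.04 and 10.71 ± 0.20 on the log2 scale. The AAV-V HFD arrays lay on a slide of their own, so diet and slide cannot be told apart. Golm1, the gene the vector carries, had a processed signal of 1.64, 1.62 and 2.06 in AAV-V, 1.68, 1.81 and 1.51 in AAV-GP73 and 1.71, 1.83 and 2.74 in AAV-V HFD. Its probe was detected on no array, so the group labels could not be checked with it. Of 10 hepatocyte marker genes, 9 or 10 were detected on each array, so the defining markers of liver were present. In these bulk samples, fewer cells of a type and less RNA per cell cannot be told apart.

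Of the 17 receptor probes, 11 probes of 7 genes were tested. In AAV-GP73 against AAV-V, 8 of the 11 were called higher, against 33.9% of all probes tested, and 1 was called lower, against 17.9%. They belonged to 6 genes: Ppara, Rxra, Hnf4a, Nr1h3, Nr1h4 and Nr5a2. In AAV-V HFD against AAV-V, 7 were called higher, against 25% of all probes, and 1 lower, against 16.9%, from 5 genes, the same without Nr5a2. The median fitted log2 fold change of the 11 probes was 1.54 and 1.42, where that of all tested probes was 0.64 and 0.41. Most of these fits include undetected arrays, so the medians are a description and not a measured size. The 2 comparisons share the AAV-V arrays. Between AAV-GP73 and AAV-V HFD limma called none of the 11, with 2.67% of all probes called, and 1 of them (Hnf4a probe 1) had an unadjusted p under 0.05. The methods' t-test called 1 receptor gene there unadjusted and 0 after adjustment. Pparg, Nr0b2 and Nr1i2 had no testable probe. Of the 8 probes called higher in AAV-GP73, all but Rxra probe 1 and Hnf4a probe 1 were detected on no AAV-V array. Those could pass the filter only through groups in which they read higher, so the counts describe the probes that passed and not all members.

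**Figure D1:**
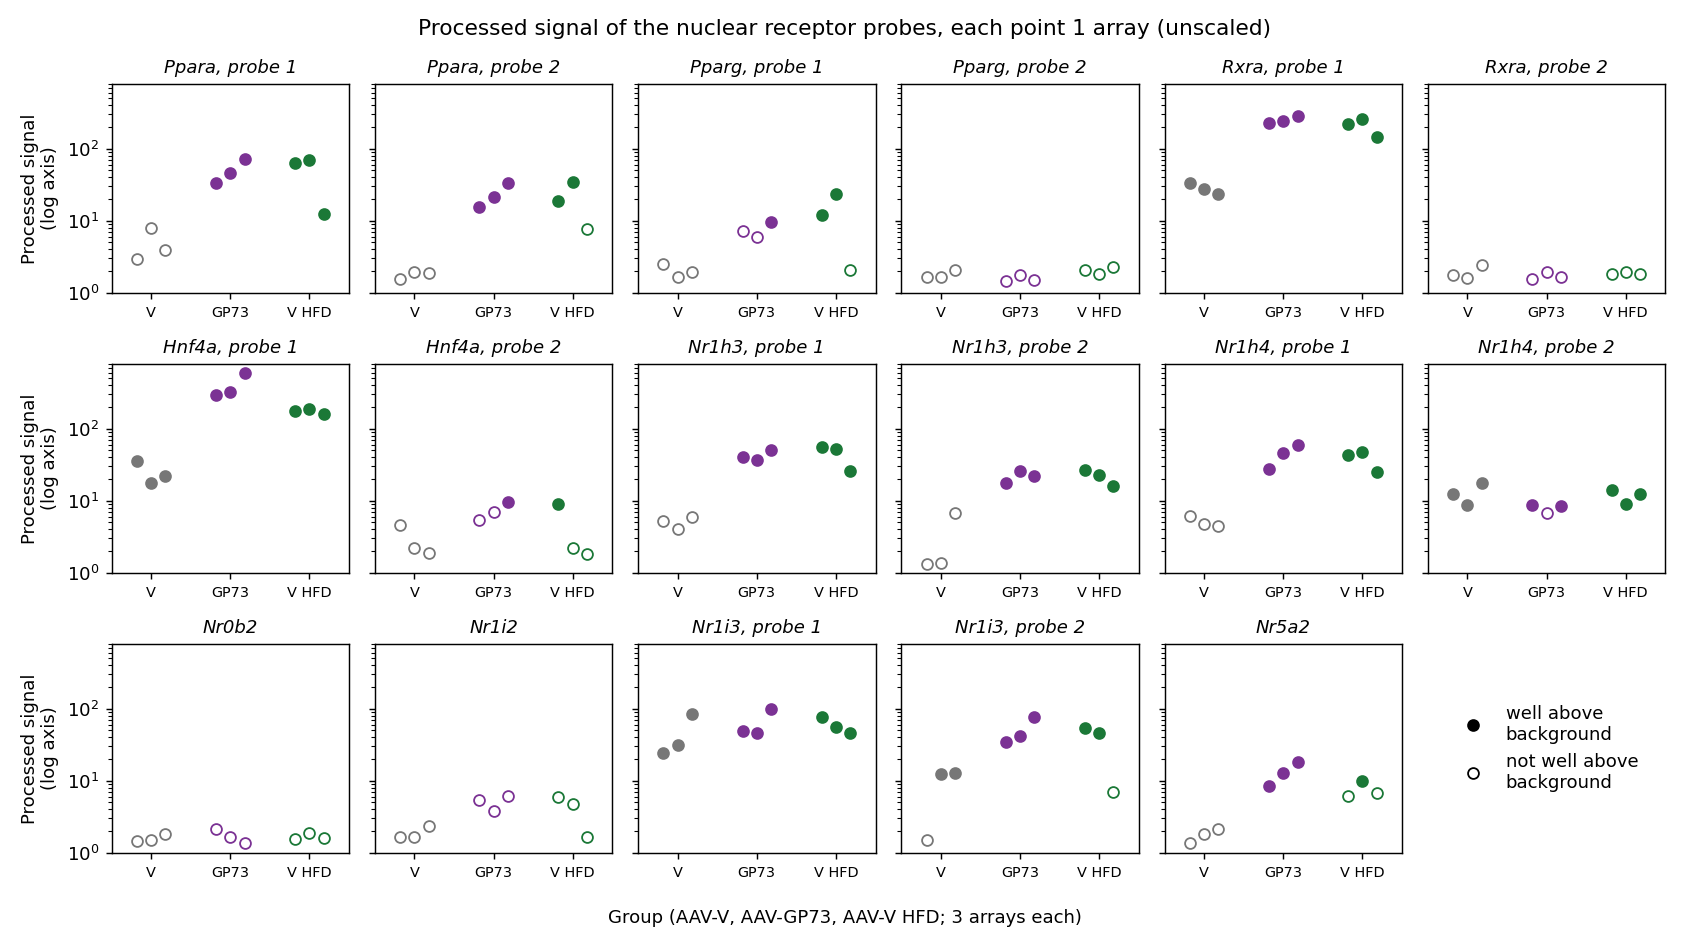
Processed signal (log axis, unscaled) of each of the 17 nuclear receptor probes on the 9 arrays, with V for AAV-V, GP73 for AAV-GP73 and V HFD for AAV-V HFD. Filled points are well above background. Rxra probe 1, Hnf4a probe 1 and Nr1i3 probe 1 are filled on all 9 arrays, and the 3 AAV-V points lie below all others for Rxra and Hnf4a, while the groups overlap for Nr1i3.

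For Hnf4a and Nr1i3 the arrays carried a probe within the coding sequence in addition to another probe of the gene, and the Nr0b2 probe is also coding. These sequences are shown because the 2 probes of Hnf4a and of Nr1i3 gave different readings and because Nr0b2 gave none. All are read from the scanner files, 5′ to 3′, with mm9 coordinates. Capitals mark a pair of cysteine codons of the zinc-finger region in the Hnf4a probe and the start codon in the Nr1i3 probe.
Hnf4a probe 2 (chr2:163378302-163378361, plus strand): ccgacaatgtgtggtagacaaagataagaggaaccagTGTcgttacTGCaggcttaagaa
Nr1i3 probe 2 (chr1:173144301-173144529, plus strand): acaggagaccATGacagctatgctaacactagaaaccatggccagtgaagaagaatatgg
Nr1i3 probe 1 (chr1:173147776-173147835, plus strand): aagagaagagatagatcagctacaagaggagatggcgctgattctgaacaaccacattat
Nr0b2 probe (chr4:133109694-133109753, plus strand): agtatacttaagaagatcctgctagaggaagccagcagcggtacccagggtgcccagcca
The 60 bases of Nr1i3 probe 2 span 229 bases of the genome, so this probe crosses a splice junction.

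Hnf4a, a constitutively active receptor that maintains hepatocyte genes, had the largest rise in AAV-GP73 among the members detected on all 9 arrays. Probe 1 (chr2:163398548-163398607 of mm9) had processed signals of 35.5, 17.7 and 22.3 in AAV-V, 293.1, 325.9 and 592.3 in AAV-GP73 and 177.4, 186.5 and 159.4 in AAV-V HFD. The 3 groups did not overlap, with AAV-V lowest and AAV-GP73 highest. On the scaled log2 scale the levels were 5.59 ± 0.50, 8.04 ± 0.35 and 6.99 ± 0.29 (SD, n = 3). Hnf4a rose 5.48-fold in AAV-GP73 (log2 2.46, SE 0.33, limma adjusted p = 0.000149) and 2.63-fold in AAV-V HFD (log2 1.40, SE 0.33, adjusted p = 0.00462). The difference between AAV-GP73 and AAV-V HFD was 2.08-fold (log2 1.06, SE 0.33) with an adjusted p of 0.119 and was not called, although the groups did not overlap (15.7% of all probes did not overlap in this direction).

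The coding probe of Hnf4a, whose sequence is shown above, was at or near background. It read 4.65, 2.19 and 1.89 in AAV-V, 5.38, 6.88 and 9.62 in AAV-GP73 and 8.89, 2.19 and 1.83 in AAV-V HFD. It was detected on 1 AAV-GP73 array and 1 AAV-V HFD array and was not tested, so the rise of Hnf4a rests on 1 probe.

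Rxra, the heterodimer partner of the PPARs, LXRs, FXR, PXR and CAR, rose in both groups to similar levels. Probe 1 (chr2:27618345-27618404) read 33.1, 28.0 and 23.7 in AAV-V, 224.9, 244.1 and 285.6 in AAV-GP73 and 222.0, 260.7 and 147.6 in AAV-V HFD, detected on all 9 arrays. The AAV-V arrays lay below the others and the groups AAV-GP73 and AAV-V HFD overlapped. The scaled log2 levels were 5.80 ± 0.32, 7.43 ± 0.05 and 7.22 ± 0.20. The change was 3.08-fold in AAV-GP73 (log2 1.62, SE 0.27, adjusted p = 0.000412) and 2.67-fold in AAV-V HFD (log2 1.42, SE 0.27, adjusted p = 0.00161). The difference between AAV-GP73 and AAV-V HFD was 0.21 on the log2 scale (SE 0.27, adjusted p = 0.741). A second Rxra probe (chr2:27615316-27615375) lay between 1.56 and 2.39 on all arrays and was detected on none.

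Ppara encodes the receptor that switches on fatty acid oxidation in the fasted liver. Both of its probes were detected on all AAV-GP73 arrays and on no AAV-V array. Probe 1 (chr15:85632110-85632169) read 2.90, 7.99 and 3.97 in AAV-V, 33.1, 45.8 and 73.0 in AAV-GP73 and 64.2, 68.9 and 12.3 in AAV-V HFD. In AAV-V HFD replicates 1 and 2 were high and replicate 3 was low. Where 1 group left a probe undetected its change has no measured size, and a least fold is given, computed against the dimmest detected probes of the arrays concerned. Probe 1 was called higher in AAV-GP73, by at least 2.16-fold (adjusted p = 0.00855), and in AAV-V HFD, by at least 1.81-fold (adjusted p = 0.0215), where the scaled levels of the groups overlapped. The call in AAV-V HFD was lost without AAV-V replicate 1 or 3 and without AAV-V HFD replicate 1 or 2, with log2 fold changes between 1.25 and 1.46.

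Ppara probe 2 (chr15:85637193-85637252) read 1.54, 1.93 and 1.90 in AAV-V, 15.7, 21.7 and 33.0 in AAV-GP73 and 18.5, 34.2 and 7.78 in AAV-V HFD. It gave the same order, again with AAV-V HFD replicate 3 lowest in its group and here undetected. It was called higher in AAV-GP73, by at least 1.06-fold (adjusted p = 0.000717). In AAV-V HFD, where 2 of 3 arrays detected it, the probe was also called higher (fitted log2 1.81, adjusted p = 0.00282). The least change there was -0.22 on the log2 scale, so the rise has no measured size. Between AAV-GP73 and AAV-V HFD the log2 differences of the 2 probes were 0.26 (SE 0.52) and 0.31 (SE 0.38), with adjusted p of 0.848 and 0.729.

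Pparg, the receptor of adipocyte differentiation, is expressed at low levels in healthy liver and rises in many fatty livers. Probe 1 (chr6:115440213-115440272) read 2.52, 1.66 and 1.93 in AAV-V, 7.10, 5.99 and 9.55 in AAV-GP73 and 11.9, 23.6 and 2.05 in AAV-V HFD. It was detected in AAV-GP73 replicate 3 and in AAV-V HFD replicates 1 and 2 alone, and it was not tested. Probe 2 (chr6:115413557-115413616) was detected on no array, with signals between 1.45 and 2.29. Of 5 adipocyte markers, 4 (Adipoq, Plin1, Lep and Retn) were detected on no array and Cfd on 1.

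Nr1h3 encodes LXRα, which responds to oxysterols and controls cholesterol export and fatty acid synthesis genes. Probe 1 (chr2:91024250-91024309, minus strand) read 5.29, 4.09 and 6.0 in AAV-V, 40.3, 36.8 and 51.3 in AAV-GP73 and 55.0, 51.9 and 26.1 in AAV-V HFD. AAV-V lay below both other groups, which overlapped. The probe was called higher by at least 2.01-fold in AAV-GP73 (adjusted p = 0.000441) and by at least 2.12-fold in AAV-V HFD (adjusted p = 0.000732). Probe 2 (chr2:91024435-91024494) read 1.33, 1.36 and 6.64, then 17.4, 26.1 and 22.2, then 26.9, 22.9 and 16.1. AAV-V replicate 3 stood above the other 2 AAV-V arrays without being detected. This probe too was called higher, by at least 1.03-fold (adjusted p = 0.00996) and 1.08-fold (adjusted p = 0.0101). Between AAV-GP73 and AAV-V HFD the log2 differences were -0.08 (SE 0.26, adjusted p = 0.915) and -0.07 (SE 0.48, adjusted p = 0.955).

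Nr1h4 encodes FXR, which lowers bile acid synthesis when bile acids rise, and its 2 probes went opposite ways. Probe 1 (chr10:88917222-88917281, minus strand) read 6.17, 4.67 and 4.38 in AAV-V, 27.7, 45.5 and 60.0 in AAV-GP73 and 43.5, 47.8 and 25.4 in AAV-V HFD. It was called higher by at least 2.01-fold in AAV-GP73 (adjusted p = 0.0011) and by at least 1.88-fold in AAV-V HFD (adjusted p = 0.00251). Probe 2 (chr10:88960160-88960219) read 12.3, 8.63 and 17.9 in AAV-V, 8.83, 6.65 and 8.48 in AAV-GP73 and 14.2, 9.10 and 12.3 in AAV-V HFD. These unscaled signals overlapped between AAV-V and each of the other groups, while the scaled levels of AAV-V lay above those of both other groups.

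On the scaled log2 scale, Nr1h4 probe 2 was at 4.63 ± 0.41 in AAV-V, 2.45 ± 0.25 in AAV-GP73, where 2 of 3 arrays detected it, and 3.09 ± 0.50 in AAV-V HFD. It was called lower in AAV-GP73 (log2 -2.18, SE 0.33, adjusted p = 0.000256) and 2.91-fold lower in AAV-V HFD (log2 -1.54, SE 0.33, adjusted p = 0.0029). Scaled by spike-ins, the log2 fold changes were -0.50 and -0.20 and neither was called. With the 75th percentile of all probes the fall in AAV-V HFD was also not called (log2 -0.58). The annotation ties this probe to a pancreatic islet cDNA clone of Nr1h4, and how much of the liver's Nr1h4 RNA it measures was not tested.

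**Figure D2:**
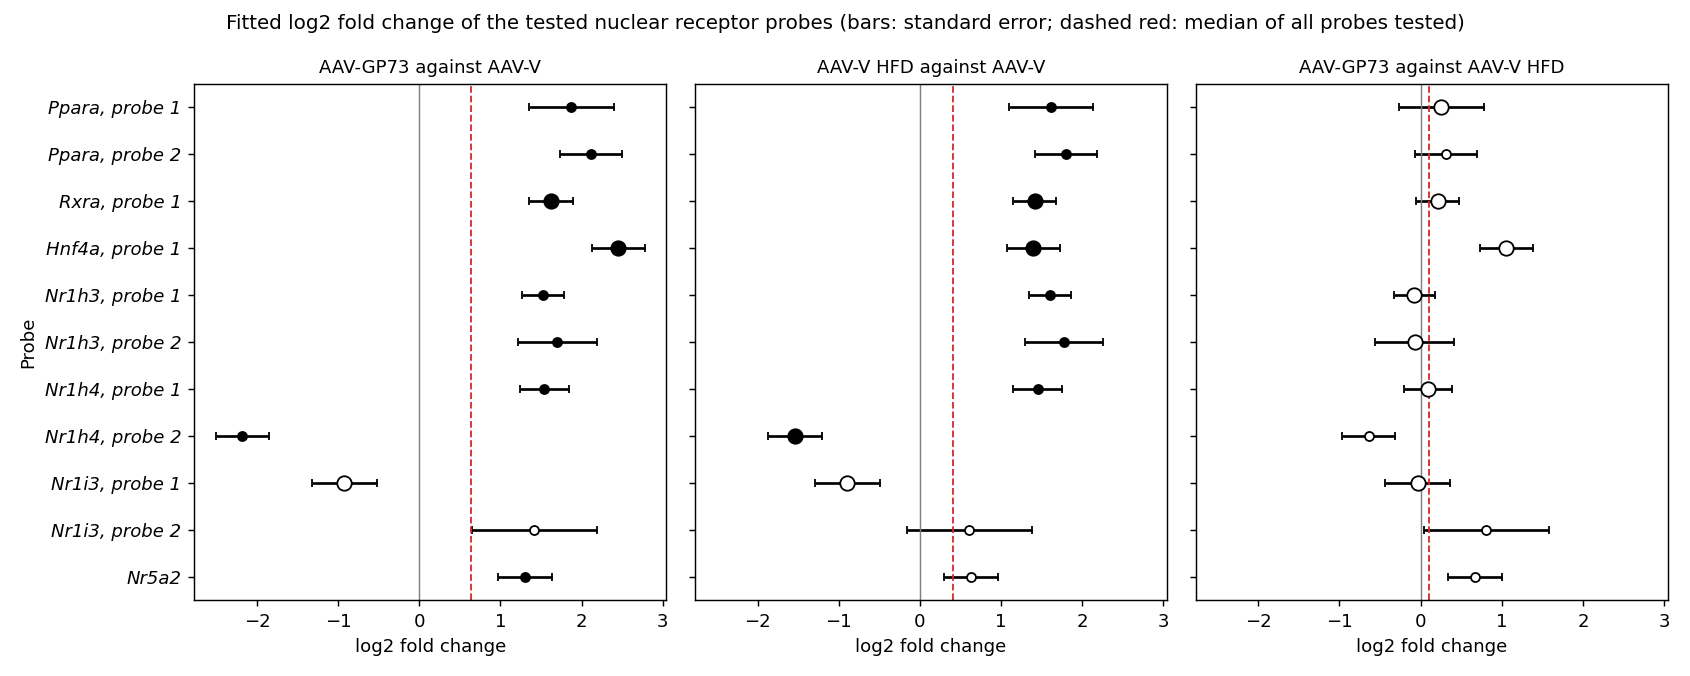
Fitted log2 fold change (x axis) of the 11 tested nuclear receptor probes (y axis) in the 3 comparisons, with bars for the standard error. Filled points were called, large points were detected on all 3 arrays of both groups, small points are fitted values that include undetected arrays, and the dashed line is the median of all 6591 probes tested (0.64, 0.41 and 0.10). Both Ppara, both Nr1h3, Rxra and Hnf4a probes lie right of the dashed line in the first 2 panels, and no point is filled in the third.

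Nr1i3 encodes CAR, a receptor that induces drug-metabolizing enzymes, and neither of its probes was called in any comparison with the scaling and test used here. Probe 1 read 24.1, 31.2 and 83.2 in AAV-V, 48.6, 46.0 and 99.5 in AAV-GP73 and 77.5, 55.7 and 46.4 in AAV-V HFD, detected on all 9 arrays. AAV-V replicate 3 stood above the other 2 AAV-V arrays. The scaled log2 levels were 6.31 ± 0.85, 5.38 ± 0.43 and 5.41 ± 0.17, differences from AAV-V of -0.93 (SE 0.40, adjusted p = 0.0625) and -0.89 (SE 0.40, adjusted p = 0.0776). The sign of these differences turned with some scalings, to 0.069 and 0.062 with the 75th percentile of all probes and to 0.76 and 0.44 with spike-ins. In the authors' log2 table the probe stayed lower on average in both groups than in AAV-V. It was there at 6.27, 6.70 and 8.14 in AAV-V, 5.58, 5.41 and 6.30 in AAV-GP73 and 5.97, 5.61 and 5.95 in AAV-V HFD. Without AAV-V replicate 1 the probe was called lower in both groups (log2 -1.28 and -1.24), and without AAV-GP73 replicate 3 in AAV-GP73 (log2 -1.17).

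Nr1i3 probe 2, over the start codon, read 1.5, 12.2 and 12.7 in AAV-V, 34.7, 41.2 and 75.6 in AAV-GP73 and 53.2, 45.8 and 6.91 in AAV-V HFD. AAV-V replicate 1 and AAV-V HFD replicate 3 were low and undetected. Its log2 differences from AAV-V were 1.42 (SE 0.77, adjusted p = 0.127) in AAV-GP73 and 0.61 (SE 0.77, adjusted p = 0.525) in AAV-V HFD. The 2 coding probes of Nr1i3 thus gave values of opposite sign, neither past the threshold. Under the alternatives that kept all arrays, 4 results of these 2 probes in AAV-GP73 against AAV-V were called, with the sign kept.

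Nr5a2 encodes LRH-1, which with SHP sets the rate of bile acid synthesis. Its probe (chr1:138740903-138740962, minus strand) read 1.37, 1.80 and 2.13 in AAV-V, 8.37, 12.8 and 17.9 in AAV-GP73 and 6.04, 9.92 and 6.70 in AAV-V HFD. It was detected on all AAV-GP73 arrays, on no AAV-V array and on 1 AAV-V HFD array. Nr5a2 was called higher in AAV-GP73 (adjusted p = 0.0054; with normexp background correction it was at -0.63 and not called higher), but its signals there were too near the lowest detectable signal for a least fold above 1. In AAV-V HFD it was not called (fitted log2 0.63, SE 0.33, adjusted p = 0.125), and the difference between AAV-GP73 and AAV-V HFD was not called either (fitted log2 0.67, SE 0.33, adjusted p = 0.351).

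Nr0b2 and Nr1i2 gave no signal that could be measured. The Nr0b2 probe, whose coding sequence is shown above, lay between 1.37 and 2.14 on all arrays. The Nr1i2 probe (chr16:38248745-38248804) lay between 1.62 and 2.37 in AAV-V, 3.82 and 6.08 in AAV-GP73 and 1.64 and 5.85 in AAV-V HFD. Neither was detected on any array, and a probe that is not well above background says nothing of the presence of its RNA.

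**Figure D3:**
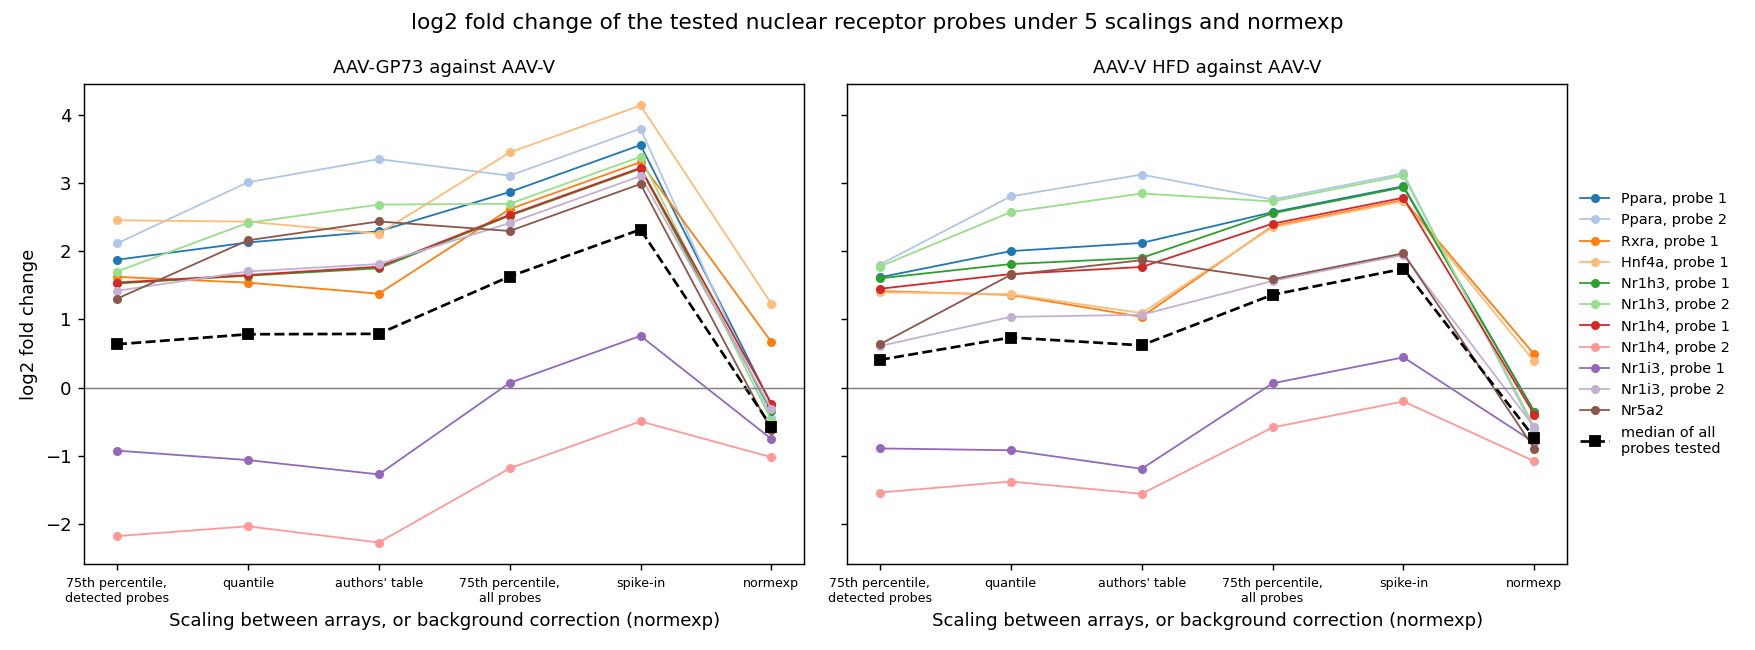
log2 fold change (y axis) of the 11 tested nuclear receptor probes under 5 ways of scaling the arrays and with normexp background correction (x axis), for AAV-GP73 (left) and AAV-V HFD (right) against AAV-V, with the median of all probes tested as squares. Nr1i3 probe 1 crosses 0 between scalings (on the left, -0.93 with the scaling used here and 0.76 with spike-ins). Nr1h4 probe 2 stays below 0, and the other 9 probes stay above 0 in all 5 scalings. With normexp 7 of these 9 lie below 0, and Rxra probe 1 and Hnf4a probe 1 stay above it.

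How the arrays were scaled and their background corrected changed the size of these values and, for some, their sign. The median of all probes tested in AAV-GP73 against AAV-V was 0.64 with the scaling used here, 0.78 with quantile normalization, 0.79 in the authors' log2 table, 1.63 with the 75th percentile of all probes and 2.32 with spike-ins. The log2 fold change of Hnf4a was between 2.26 and 4.14 over these 5 scalings and that of Rxra between 1.38 and 3.31. With normexp, which adds a constant to the signal, the median of all probes was -0.58 in AAV-GP73 and -0.74 with the HFD. Hnf4a was then at 1.23 and still called in AAV-GP73, and at 0.38 and not called with the HFD. Rxra was at 0.67 and 0.49 and not called. Both Ppara probes, both Nr1h3 probes, Nr1h4 probe 1, Nr1i3 probe 2 and Nr5a2 lay below 0 in both comparisons with normexp (-0.23 to -0.63 in AAV-GP73), and none was called higher. The share of called probes that were higher was 65.4% for AAV-GP73 and 59.6% with the HFD, and 91.3% and 95.2% with the 75th percentile of all probes.

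Other receptors were mostly below detection. Of 38 further nuclear receptor genes on the array 8 were tested, with 4 calls upward and 3 downward in AAV-GP73, where 33.2% and 19.4% of all genes had such calls. In AAV-V HFD 3 were called higher, against 24.8% of all genes, and 2 lower, against 18.2%. Nr2f6 (EAR2), an orphan receptor, was called higher by at least 1.35-fold in AAV-GP73 (adjusted p = 0.000117) and at least 1.16-fold in AAV-V HFD (adjusted p = 0.000396). Rora, a receptor of the clock, was called higher by at least 1.96-fold and 1.47-fold (adjusted p = 0.00536 and 0.0243). Among those called lower were Nr1h2, which encodes LXRβ (log2 -1.38 and -1.31), and Rxrb, a second RXR (log2 -1.29 in AAV-GP73, and -0.94 with no call in AAV-V HFD), both detected on all 9 arrays. Neither fall was called with the 75th percentile of all probes or with spike-ins, and with spike-ins the signs turned, to 0.31 and 0.028 for Nr1h2 and to 0.39 and 0.40 for Rxrb, which with the 75th percentile of all probes was at 0.018 in AAV-V HFD. Of 24 coregulator genes 5 were tested, and 3 were called higher in AAV-GP73, Ncoa4, Ncoa6 and Ncor1, and Ncoa4 and Ncoa6 in AAV-V HFD. Ncor1, a corepressor detected on all arrays of both groups, rose by 1.23 on the log2 scale (adjusted p = 0.00963) but was not called in the authors' table (1.03) or with normexp (0.17).

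The counts for the known targets of these receptors stand against the shares given above for all genes, 33.2% upward and 19.4% downward for AAV-GP73, 24.8% and 18.2% with the HFD. Of 30 PPARα targets 21 were tested, all 21 were called higher in AAV-GP73, and 17 were called higher in AAV-V HFD. Of the 21, 4 were detected on all arrays of both groups and 13 on no array of AAV-V, 10 of these higher by at least 2-fold. Those 13 could pass the filter only through groups other than AAV-V, so the counts describe the genes that passed and not all 30. Of the 17, 4 were detected on all arrays of both groups, and 3 had a least fold of 2 or more. With normexp 6 and 3 were called higher. The 1 called lower there, Cyp4a14, was detected on no array of AAV-V or AAV-V HFD. Among those detected on all 9 arrays was Acaa1b, a peroxisomal thiolase, which rose by 3.49 in AAV-GP73 and by 2.22 with the HFD on the log2 scale (adjusted p = 0.000111 and 0.00191). With the scaling used here, 6 genes were called higher in AAV-GP73 than in AAV-V HFD, where 1.98% of all genes were: Acot1, Cyp4a10, Cyp4a14, Ehhadh, Plin2 and Plin5. Plin2 and Plin5, lipid droplet proteins detected on all 6 of those arrays, differed by 2.46 (adjusted p = 0.0293) and 2.66 (adjusted p = 0.00513) on the log2 scale. Among the 21 tested targets, quantile normalization called 3 higher in AAV-GP73 than in AAV-V HFD, and the authors' log2 table also gave 3. The calls numbered 6 with the 75th percentile of all probes, 7 with spike-ins and 5 with normexp. Ppara itself differed by 0.26 and 0.31 between these groups and was not called.

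The targets of LXR gave mixed values. Of 12 genes 5 were tested, with 2 calls in AAV-GP73, both lower (19.4% of all genes were), and 3 in AAV-V HFD, 1 higher (24.8%) and 2 lower (18.2%). Fasn, the fatty acid synthase, was detected on all AAV-V arrays and on no AAV-GP73 array, at least 19.3-fold lower (adjusted p = 1.22e-05), and fell by 3.44 on the log2 scale in AAV-V HFD (adjusted p = 0.000178). Srebf1, a lipogenic transcription factor and the other gene called lower in AAV-GP73, was detected in AAV-V HFD alone, where it was at least 1.98-fold above AAV-GP73 (adjusted p = 0.00513). Scd1, a desaturase, was at -0.86 in AAV-GP73 with no call (adjusted p = 0.0705; 0.13 with the 75th percentile of all probes and 0.82 with spike-ins) and fell by 3.15 in AAV-V HFD (adjusted p = 0.000273). Abcg5, a sterol exporter detected on no AAV-V array, was called higher in AAV-V HFD (adjusted p = 0.0273), a rise without a measured size.

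Of 15 bile acid genes under FXR, SHP and LRH-1, 7 were tested, of which 6 had upward calls in AAV-GP73 (33.2% of all genes did) and 3 with the HFD (24.8%). With normexp 1 and 0 had. Of the 6, 3 were detected on no AAV-V array and could pass the filter only through the other groups. Slc10a1, the bile acid importer, and Slc27a5, a bile acid ligase, were detected on all 9 arrays and rose in AAV-GP73 (log2 1.02 and 1.54, adjusted p = 0.00505 and 0.00113), with 0.05 and 0.40 in AAV-V HFD and no call. Abcb4, the phospholipid exporter of bile, was called higher by at least 2.45-fold in AAV-GP73 and 1.35-fold in AAV-V HFD. Of 19 PXR and CAR targets on the array 7 were tested. Upward calls numbered 4 in AAV-GP73 and 3 with the HFD (33.2% and 24.8% of all genes), downward calls 1 and 2 (19.4% and 18.2%). Ces2a, a carboxylesterase and 1 of the 2 called lower with the HFD, was detected in neither AAV-V nor AAV-V HFD. Aldh1a1, a retinal dehydrogenase, rose by 3.09 and 2.65, while Cyp2c29, a CAR-inducible cytochrome P450, fell by 1.35 and 1.30 on the log2 scale. With spike-ins Cyp2c29 was at 0.34 and 0.036 and was not called.

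Of 20 HNF4α targets 19 were tested, with 4 upward calls in AAV-GP73, 3 with the HFD and 1 downward call in each, again against 33.2%, 24.8%, 19.4% and 18.2% of all genes. With spike-ins the upward calls were 16 and 9. The median fitted log2 fold change of the 19, undetected arrays included, was 0.19 and -0.25, below the 0.60 and 0.37 of all genes, where Hnf4a probe 1 was at 2.46 and 1.40. Alb, Apoa1 and Ttr, secreted liver proteins, were at -0.16, -0.28 and 0.18 in AAV-GP73 and were not called. Tat, an amino acid enzyme, rose by 2.25 on the log2 scale in AAV-GP73 (adjusted p = 0.00749), and Cps1, of the urea cycle, fell by 1.59 (adjusted p = 0.0132), a fall that spike-ins did not show (log2 0.095). Of 4 PPARγ targets tested out of 10, G0s2, detected on no AAV-V array, was called higher in AAV-GP73 (adjusted p = 0.00714). Aqp7, a glycerol channel, was called lower in both comparisons (adjusted p = 0.000373 and 0.00635) and was detected on all AAV-V arrays, on 1 AAV-GP73 array and on 2 AAV-V HFD arrays. With the 75th percentile of all probes and with spike-ins, 0 of these 4 targets were called lower in AAV-V HFD, and 1 in AAV-GP73.

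**Figure D4:**
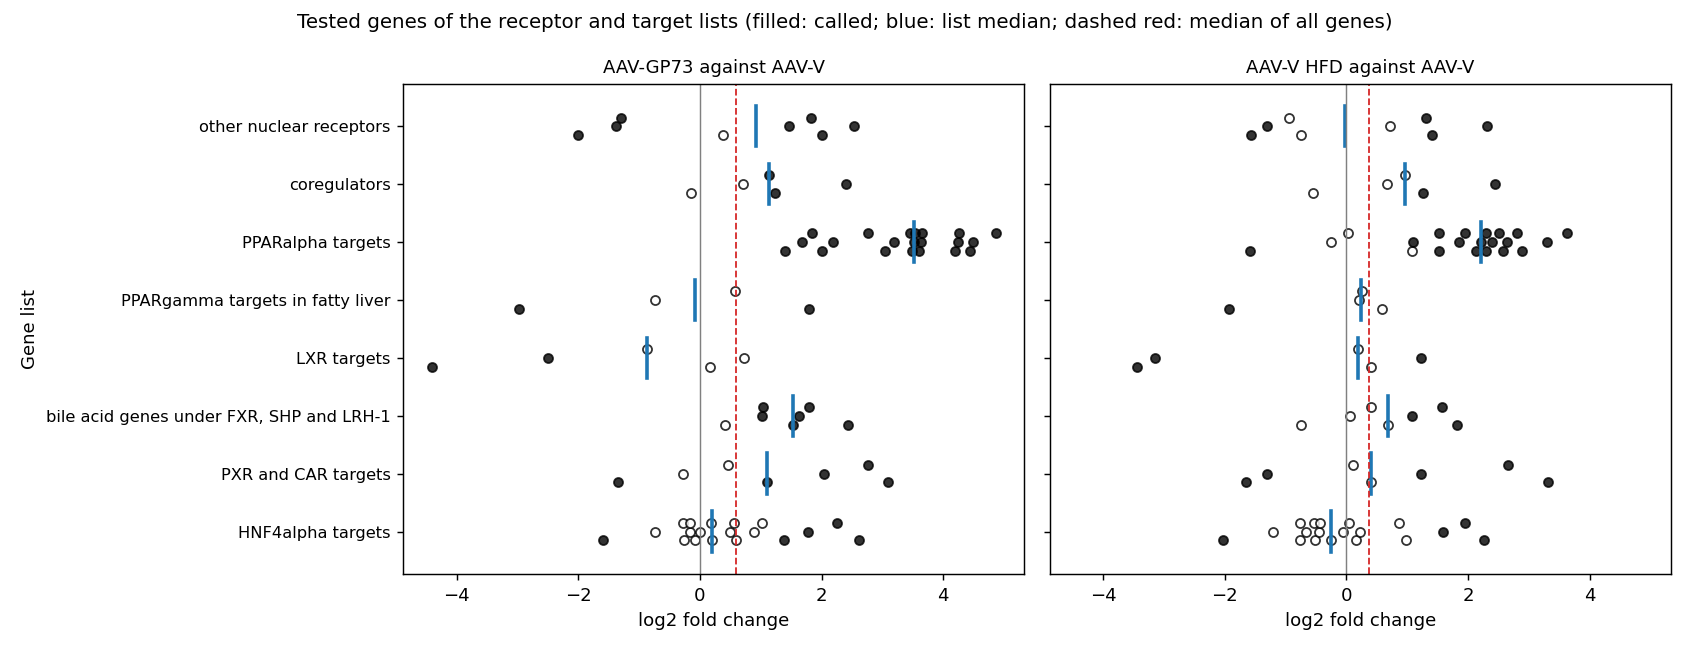
Fitted log2 fold change against AAV-V (x axis) of each tested gene of the receptor, coregulator and target lists (y axis), in AAV-GP73 (left) and AAV-V HFD (right). Filled points were called, the blue bar is the list's median and the dashed line the median of all genes (0.60 and 0.37). Many points include undetected arrays and have no measured size. All 21 PPARα targets lie right of 0 on the left, and the HNF4α targets spread around 0.

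Among 2426 genes detected on all arrays, the named genes whose scaled log2 profile over the 9 arrays lay nearest to Rxra probe 1, after centring, were Gpx4 and H3f3a, with a root mean square distance of 0.16 and 0.17 and an unnamed transcript between them. For Hnf4a probe 1 the named gene nearest was Gstp2, at 0.21. For Nr1i3 probe 1 it was Trap1, at 0.30. The distance of each receptor's own profile from a flat line was 0.74, 1.05 and 0.63.

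Marker genes of other cells also differed between groups. The summed level of 6 erythroid markers was between 8.56 and 9.85 (scaled log2) in AAV-V, 11.69 and 14.02 in AAV-GP73 and 9.26 and 10.07 in AAV-V HFD, with 1 of the 6 detected on no array. That of 9 lymphocyte markers, of which 6, Ptprc, Cd3e, Cd3g, Cd79a and Nkg7 among them, were detected on no array, was between 10.82 and 11.79, 8.75 and 9.68, and 9.74 and 10.50. This sum was mostly Cd4, called lower than AAV-V in both groups with the scaling used here (log2 -2.38 and -1.34). Ms4a1, also detected on all 9 arrays, was at -0.45 and -0.24 and not called. Of 8 macrophage markers between 1 and 2 were detected on each AAV-V array, between 4 and 6 on each AAV-GP73 array and between 4 and 7 on each AAV-V HFD array, with summed levels of 6.71 to 6.99, 6.78 to 7.39 and 6.90 to 7.75. Their part in the receptor values was not tested. The hepatocyte markers summed to between 13.95 and 14.63, 13.98 and 14.40, and 13.29 and 14.00.

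Most receptors of this family bind the half-site AGGTCA, singly or as a pair. RefSeq promoters (250 bases before to 50 after a start, GRCm38.p6) were matched for all 10 genes, with 16 entries. The letters AGGTCA occurred on either strand in 5 of the 16, from 4 genes, and in 16.3% of all 32851 promoters. The paired form AGGTCANAGGTCA occurred in 0.0396% of all promoters and in none of the 16. Windows around the half-site are shown for 3 genes with a probe called higher in AAV-GP73 (Nr1h4 also had a probe called lower), with the match in capitals (TGACCT is its reverse strand), and such a match is a description of the letters and not of binding.
Rxra (chr2:27709224-27709269, plus strand): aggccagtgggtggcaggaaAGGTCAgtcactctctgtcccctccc
Nr1h4 (chr10:89506847-89506892, minus strand): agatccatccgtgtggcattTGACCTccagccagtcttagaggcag
Nr5a2 (chr1:136960487-136960532, minus strand): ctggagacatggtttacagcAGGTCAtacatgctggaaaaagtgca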

How the data were processed

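Liver RNA of 9 mouse samples (3 groups of 3, grouped by the labels) was measured on one-colour Agilent arrays. As deposited, the intensity values are processed signals of Feature Extraction 12.0.3.1 per the file headers (the submitters' notes give 10.7), background-subtracted and detrended within each array and not scaled between arrays. The log2 values in the authors' deposited table of the same arrays have a normalization that is not given in the sources used here, and they served as an alternative. Probe coordinates and gene names are those of the scanner files, on mm9, for which no annotation of exons was used here.

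Spots of a probe were averaged, and marked spots left out. The log2 signal of each array was shifted to a common 75th percentile over the 2667 probes (4.71% of all) detected on all 9 arrays. With R 4.3.3 and limma 3.58.1 the 3 groups were fitted together (lmFit, eBayes) for 6591 probes, with Benjamini-Hochberg adjustment over all of them. A gene of a list was represented by its brightest probe. A least fold sets each undetected array to its lowest detected signal or the probe's own, whichever is higher. It was computed with the scaling used here alone. Precision is limited by 3 arrays per group, for which an exact permutation test could not go below p = 0.1. In simulated data for AAV-GP73 against AAV-V with 6589 probes, 52 of 100 changes of log2 1.5 and 95 of 100 of log2 3 were recovered, with 6 false calls. The simulation had normal noise around a common mean per probe, few changed probes, no detection limit and no dimmer AAV-V arrays. Its rates therefore do not describe probes that a group left undetected.

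The members, lists and alternatives were chosen with earlier results of these data known. Named were all members, Golm1 and, per list, up to 3 rises and 3 falls called against AAV-V and up to 2 between AAV-GP73 and AAV-V HFD, genes detected in both groups first. Genes named beside these were chosen after their values were seen. Some list genes that the naming rule would give are left out of the text and stay in the counts and medians of their lists. Nearest profiles were the 3 genes with the smallest root mean square distance. Alternatives were other scalings (75th percentile of all probes, quantile, spike-in, normexp with an offset of 50, the authors' table), filters, 1 probe per gene, other tests, a replicate block and leaving out each array. Equal replicate numbers of different groups had residual correlations between -0.11 and 0.17, with 2 of 9 over 0.1, and were not treated as pairs. Sequences are from the scanner files and RefSeq.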

Additional observations from a re-analysis of the deposited data

How the results depend on the processing

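The call of Hnf4a as higher in AAV-GP73 held under every alternative run, and those of Rxra, Ppara, Nr1h3, Nr1h4 probe 1 and Nr5a2 under every one that tested them but normexp, apart from Nr1h3 probe 2, which the methods' t-test did not call. Normexp adds 50, before the arrays are scaled, to signals that for most receptor probes are smaller. The cause of the lower values and turned signs with normexp was not tested. With it 893, 966 and 49 probes were called (AAV-GP73 and AAV-V HFD against AAV-V, then AAV-GP73 against AAV-V HFD, in this order throughout, where 3416, 2767 and 176 were called in the report), with 2 and 1 receptor genes in the first 2, and 152 and 80 of the calls higher. Its log2 values turned sign for Ppara (-0.25 and -0.45 for probes 1 and 2 in AAV-GP73, -0.35 and -0.63 with the HFD), Nr1h3 (-0.35 and -0.49, then -0.36 and -0.58), Nr1h4 probe 1 (-0.23 and -0.40), Nr1i3 probe 2 (-0.31 and -0.58) and Nr5a2 (-0.63 and -0.90), and between AAV-GP73 and AAV-V HFD for Nr1h3 (0.0097 and 0.095), Nr1h4 probe 2 (0.058) and Nr1i3 probe 1 (0.051). Nr1i3 probe 1 also turned with the 75th percentile of all probes (0.069, 0.062 and 0.0065) and with spike-ins (0.76, 0.44 and 0.31), and the cause was not tested. Spike-ins called 5215, 4512 and 378 probes, 98.2% of the first higher, and gave 0.27 for both Nr1h3 probes between AAV-GP73 and AAV-V HFD. Quantile normalization called 48 probes in that comparison and turned Nr1h4 probe 1 to -0.015. Without a filter on dim probes 47085, 45130 and 78 were called, nearly all lower (44727 and 43390 in the first 2). With detection on all 9 arrays, 1250, 1086 and 71 were called, with 2 receptor genes (Hnf4a and Rxra) in each of the first 2. The authors' table called 27 probes in the last comparison. The methods' t-test called 389 there unadjusted, with 1 receptor gene (Hnf4a), and after adjustment 13, with 1695 in AAV-V HFD against AAV-V. Nr5a2 was called higher in AAV-V HFD with the authors' table (1.87), quantile (1.65), all-probe (1.59) and spike-in scaling (1.97). The methods' t-test lost Ppara probe 1 and Nr1h3 probe 2 in AAV-V HFD.

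With the replicate number as a block 3413, 2779 and 124 probes and 6, 5 and 0 receptor genes were called. Leaving out each array gave 3098 to 3515, 2401 to 2980 and 38 to 191 probes and 6 to 7, 5 to 6 and 0 receptor genes. The lowest counts in AAV-GP73 against AAV-V HFD came without AAV-GP73 replicate 1 (88), 2 (55) or 3 (38) and without AAV-V HFD replicate 1 (93). Values that turned sign without 1 array ranged from -0.40 to 1.34 for Nr1i3 probe 2 in AAV-V HFD and, between AAV-GP73 and AAV-V HFD, from -0.34 to 0.62 and -0.039 to 0.75 for Ppara probes 1 and 2, -0.20 to 0.011 and -0.26 to 0.019 for Nr1h3 probes 1 and 2, -0.049 to 0.33 for Nr1h4 probe 1 and -0.28 to 0.12 for Nr1i3 probe 1. Low signal over background in AAV-V limits what can be said of the size of most rises.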
